A study of Mus musculus with 6 samples.

Results

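The ITGA8 sort and the PDPN sort are 2 ways of dividing the same kind of cell, and the arrays of each sort were set against the arrays of the other to find the genes that separate the sorts whichever the fraction. The mice were wild type C57Bl6, and all cells came from embryonic livers taken at E12.5. Every fraction was gated on ALCAM, an immunoglobulin-family adhesion molecule, and then split either by ITGA8, the integrin alpha 8 subunit, into ITGA8+ and ITGA8- cells, or by PDPN, the mucin-like glycoprotein podoplanin, into PDPN+ and PDPN- cells. These 4 arrays are compared here. The other 2 of the 6 arrays in the series, liver cells and unsplit ALCAM+ cells, entered the choice of genes only through an intensity floor given below. Each group is 1 Affymetrix Mouse Genome 430 2.0 array, and no source used here gives how many embryos were pooled for it. The 2 arrays of a sort are different cell fractions and not replicates, so no p-value is given anywhere. A gene apart in all 4 pairings of an ITGA8-sort array with a PDPN-sort array is apart whichever fraction is taken.

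Members were chosen from the array values themselves, on the scale log2(intensity + 16), with 1 probe set per gene. A gene was taken where the lower array of one sort exceeded the higher array of the other by at least 1, a 2-fold gap. Its highest array also had to exceed an intensity of 109, the median of all probe set values over the 6 arrays. This distance between the nearest arrays of the sorts is called the gap. Of 20678 genes measured, 14497 were above that floor, and 1178 separated the sorts: 754 were higher in both ITGA8-sort arrays (5.20% of genes above the floor) and 424 were higher in both PDPN-sort arrays (2.92%). All gaps below are values that chose the genes, so they are given as description. After quantile normalisation of the 4 arrays the counts were 508 and 501, so the share of ITGA8-higher genes among those apart fell to 50.3%, nearly an even split. Genes that did not overlap between the sorts, at any gap, made up 32.1% with ITGA8 higher and 20.0% with PDPN higher. At the edge of the rule, Tsx (183, 164, 74 and 20 in ITGA8+, ITGA8-, PDPN+ and PDPN-) and Ttc21a (98, 113, 41 and 25) lay just inside, and Pola1 (3099, 2584, 1287 and 1192) and 1700006J14Rik lay just outside. Toward PDPN, Fbxl21 (38, 33, 120 and 92) and Slc23a3 (123, 220, 864 and 456) were just inside, and Pter (1519, 1433, 3047 and 7241) and Tnfrsf19 (272, 1286, 2581 and 2806) just outside.

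The fetal liver at this age is the main site of red cell formation. Erythroid progenitors depend on erythropoietin and its receptor, and the zinc finger factors GATA1 and KLF1 switch on globin, haem synthesis and red cell membrane genes by binding GATA and CACCC motifs. Hepatoblasts, the liver's epithelial progenitors, lie among these cells and begin to make plasma proteins and metabolic enzymes under factors such as C/EBP alpha, HNF1 and HNF4. Mesothelium covers the liver and mesenchymal stellate cells lie along its sinusoids. The series' title names stellate cells that express integrin alpha 8.

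The 2 marker genes of the comparison and 3 further erythroid members are shown with their promoters. Letters of the GATA motif were found in 18 of the 22 erythroid members whose promoter could be searched. Sequences are from RefSeq, build GRCm38.p6, 250 bases before to 50 after the gene's start, 5′ to 3′ on the gene's strand. Capitals mark each match to AGATAA, to AGATAG, to TGATAA or to TGATAG on either strand, so that a match on the opposite strand appears as its reverse complement. The motifs and the promoters shown here were chosen after array values and matches had been seen.
Klf1, chr8:84901732-84902031, strand plus: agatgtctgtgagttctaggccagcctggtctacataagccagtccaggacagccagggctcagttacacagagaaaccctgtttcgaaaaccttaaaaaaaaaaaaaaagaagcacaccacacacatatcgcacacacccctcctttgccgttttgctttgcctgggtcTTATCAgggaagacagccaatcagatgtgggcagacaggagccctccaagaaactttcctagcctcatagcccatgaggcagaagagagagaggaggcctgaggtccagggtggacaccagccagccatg
Epor, chr9:21963527-21963826, strand minus: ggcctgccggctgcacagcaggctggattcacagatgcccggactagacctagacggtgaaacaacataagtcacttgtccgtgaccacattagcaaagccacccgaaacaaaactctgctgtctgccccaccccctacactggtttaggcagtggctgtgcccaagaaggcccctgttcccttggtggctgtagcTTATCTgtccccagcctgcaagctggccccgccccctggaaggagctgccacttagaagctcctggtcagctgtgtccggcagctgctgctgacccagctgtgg
Alas2, chrX:150547167-150547466, strand plus: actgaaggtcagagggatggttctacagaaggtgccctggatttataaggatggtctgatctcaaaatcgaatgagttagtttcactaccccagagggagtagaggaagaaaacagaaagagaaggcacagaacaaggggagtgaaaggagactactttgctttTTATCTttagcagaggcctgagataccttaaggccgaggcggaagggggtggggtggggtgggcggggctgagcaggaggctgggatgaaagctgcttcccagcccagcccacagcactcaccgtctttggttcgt
Kel, chr6:41704276-41704575, strand minus: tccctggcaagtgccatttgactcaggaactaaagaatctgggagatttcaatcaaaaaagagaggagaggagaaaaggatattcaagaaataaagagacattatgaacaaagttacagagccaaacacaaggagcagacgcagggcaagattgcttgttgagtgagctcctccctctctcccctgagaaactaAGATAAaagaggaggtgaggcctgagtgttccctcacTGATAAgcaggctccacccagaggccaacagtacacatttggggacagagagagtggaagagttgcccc
Hba-x, chr11:32276350-32276649, strand plus: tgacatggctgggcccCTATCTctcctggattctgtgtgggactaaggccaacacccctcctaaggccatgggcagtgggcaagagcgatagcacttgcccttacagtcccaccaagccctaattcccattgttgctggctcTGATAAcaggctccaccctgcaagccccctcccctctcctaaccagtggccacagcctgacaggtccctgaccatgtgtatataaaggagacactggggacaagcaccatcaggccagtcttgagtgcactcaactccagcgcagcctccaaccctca
Of 35 erythroid-list genes higher in the ITGA8 sort, 22 had a promoter in the table, and 18 of these 22 (81.8%) held a GATA match. The share was 19.2% over the 10743 promoters of genes above the floor, 20.5% over the 484 of all ITGA8-higher genes and 26.6% over the 308 of PDPN-higher genes. The erythroid promoters were also lower in G and C, with a median of 53.5% against 60.7% over all genes, and the part of base composition in the match share was not tested. Gata1, Bcl11a, Zfpm1 and Kcnn4 had no GATA match in this window. For CACCC only the letters CCACACCC were searched, and they were found in 1 of the 22 erythroid promoters, that of Kcnn4, against 3.66% of all. The letters CACCC in other surroundings, as in the Klf1 and Epor promoters above, were not counted. The share of promoters with any CACCC motif is therefore not known from this search.

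For the PDPN-higher genes the letters searched were a shortened HNF1 motif with 1 open base and the HNF4 letters CAAAGTCCA, on both strands. The HNF1 letters were in 8 of 308 promoters (2.60%) against 0.335% of all, and in 0 of the 484 promoters of ITGA8-higher genes. The HNF4 letters were in 5 (1.62%) against 0.419%. One of the 8 is shown for F13b, the B subunit of coagulation factor XIII, with the match in capitals. It was picked because it holds a match, after the promoters of Apoc4, Agt and Lect2 had been searched and held neither motif. A match describes these letters and does not show a bound site.
F13b, chr1:139501457-139501756, strand plus: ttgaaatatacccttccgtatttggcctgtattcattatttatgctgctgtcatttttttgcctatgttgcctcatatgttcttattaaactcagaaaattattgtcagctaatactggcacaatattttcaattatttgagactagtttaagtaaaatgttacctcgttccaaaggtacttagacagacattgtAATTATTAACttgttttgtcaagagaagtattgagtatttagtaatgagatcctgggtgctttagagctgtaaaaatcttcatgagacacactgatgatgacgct

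**Figure D1:**
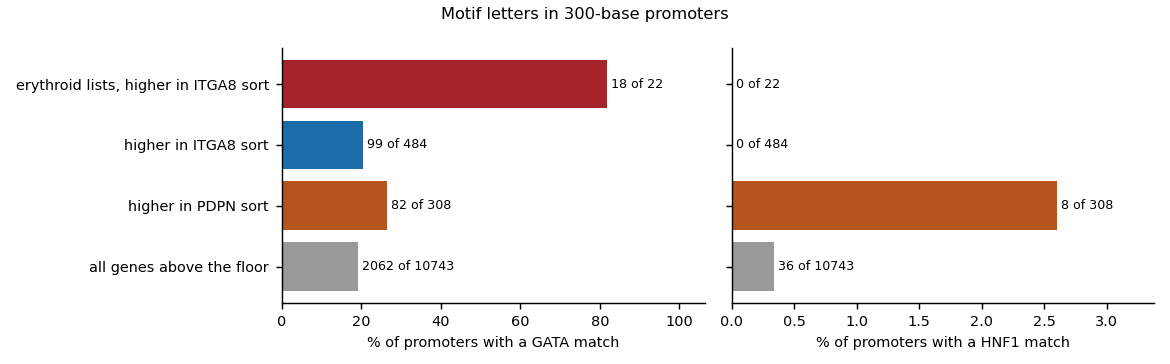
Share of promoters that hold a GATA match (left) or an HNF1 match (right), in %, for the erythroid-list members, all ITGA8-higher genes, all PDPN-higher genes and all genes above the floor, with counts beside the bars. The GATA share is 81.8% in the erythroid members and 19.2% over all genes, and the HNF1 share is 2.60% in PDPN-higher genes and 0.335% over all genes.

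Some facts of the arrays bear on every value. The 4 fraction arrays had median probe set intensities of 123 to 200, lowest in PDPN-, and 11874 to 13352 genes above the floor, with the fewest again in PDPN-. Over the 14497 genes Spearman's rho was 0.954 between ITGA8+ and ITGA8- and 0.897 between PDPN+ and PDPN-, while ITGA8- and PDPN+ had 0.935, above the value within the PDPN sort. Alcam, the gene of the first gate, was at 22418, 17313, 19332 and 16996, high in all 4 fractions. Itga8 was at 4354, 871, 737 and 2215 and Pdpn at 4658, 6176, 7746 and 117, so each was higher in the positive fraction of its own sort. Of 5 sex-linked genes 2 met the rule, both toward PDPN. The Y-linked helicase gene Ddx3y was at 889, 824, 2243 and 2967 and the Y-linked demethylase gene Kdm5d at 166, 119, 495 and 513, higher in the PDPN sort by gaps of 2.50-fold and 2.81-fold, while Eif2s3y (1158, 1281, 1181 and 1760) and Xist (13000, 12097, 12392 and 11800) overlapped. The part of the embryos' sex in the other results was not tested, and embryos and sorts cannot be told apart with 1 array per fraction. In bulk RNA fewer cells of a type and less RNA per cell cannot be told apart either.

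Erythroid genes were the clearest group on the ITGA8 side. Of 75 erythroid-list genes above the floor, 35 (46.7%, against 5.20% of all genes) were higher in both ITGA8-sort arrays and 1 was higher in both PDPN-sort arrays. A further 23 did not overlap between sorts but had a gap under 2-fold, so 58 of 75 (77.3%, against 32.1%) were apart in this direction. The lists were drawn up with an earlier result on Klf1 and Epor known, so the counts are no independent evidence. Within the ITGA8 sort 17 of the 35 were higher in ITGA8+ than in ITGA8- cells, against 7285 of all 14497 genes. Within the PDPN sort 29 of the 35 were higher in PDPN+ than in PDPN- cells, against 7652 of all 14497. Over all 75 erythroid-list genes above the floor the counts were 38 and 44, and the 35 were chosen on these same arrays.

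Among regulators, Klf1, which encodes the erythroid Krüppel-like factor, was at 11851 in ITGA8+, 6801 in ITGA8-, 559 in PDPN+ and 331 in PDPN-. Epor, the erythropoietin receptor gene, was at 2830, 2064, 121 and 70 in the same order. Both genes were high in both ITGA8-sort arrays and low in both PDPN-sort arrays, with gaps of 11.9-fold and 15.2-fold. Tal1, which encodes a basic helix-loop-helix factor of blood stem and red cells, was at 10391, 6184, 1049 and 158, a 5.82-fold gap. Gata1, the gene of the GATA factor that drives red cell differentiation, was at 8483, 4566, 856 and 155, a 5.26-fold gap. Lmo2, whose LIM-domain protein bridges TAL1 and GATA1, was at 4880, 4655, 971 and 263. In these 3 genes PDPN- lay well below PDPN+, and PDPN+ was the nearer of the PDPN-sort arrays to the ITGA8 sort. Bcl11a, a repressor of embryonic globin genes, had a gap of 3.85-fold, Zfpm1, the GATA1 cofactor FOG1, 3.68-fold, and the repressor gene Gfi1b 3.04-fold. Hemgn and Nfe2 were the other members, at 2.90-fold and 2.19-fold. Not every regulator followed: Jak2, the kinase under the receptor, had a gap of 1.36-fold and Mllt3 1.05-fold, Stat5a, Ldb1 and Sox6 overlapped, and Cited2 was 1.37-fold higher in the PDPN sort.

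Red cell membrane and surface genes gave 13 of 20 higher in the ITGA8 sort and none higher in the PDPN sort by the rule, against 5.20% and 2.92% of all genes. Ank1, which encodes the ankyrin that ties band 3 to spectrin, was at 2228, 1330, 105 and 97, an 11.1-fold gap. Icam4, an adhesion molecule of erythroblasts, was at 1213, 1270, 102 and 50, a 10.4-fold gap. Kel, the Kell blood group protease gene, was at 5655, 4059, 506 and 161, a 7.81-fold gap. In these 3 genes both ITGA8-sort arrays were high and both PDPN-sort arrays low, without overlap. Rhd and Rhag of the Rhesus complex had gaps of 6.87-fold and 3.85-fold, Ermap 6.63-fold, and the beta spectrin gene Sptb 5.37-fold. The adducin gene Add2 had a gap of 5.18-fold and the dematin gene Dmtn 5.05-fold. Slc4a1, band 3 itself, and Epb42 were nearer the threshold, at 2.41-fold and 2.16-fold. Gypc, Tspan33, Xk and Aqp1 had gaps under 2-fold in the same direction, while Tmod1 and Cd59a overlapped and Epb41 was at 3126, 4509, 4636 and 4541.

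Globin genes were measured thinly: of the 7 genes listed as globins or their chaperone, Hbb-bt and Hbb-bs had no probe set of their own in use, and Hba-a1 lay below the floor. The other 4 listed genes, 3 globins and the chaperone, were all higher in the ITGA8 sort (5.20% of all genes were). Hbb-b2, an adult beta globin gene that is on none of the lists and was named after its values were seen, was also higher, at 446, 282, 40 and 80, a 3.10-fold gap. Hbb-bh1, an embryonic beta-like globin gene, was at 3334, 3138, 416 and 334, a 7.30-fold gap, and Hba-x, the embryonic zeta globin gene, was at 1442, 1766, 110 and 268, a 5.13-fold gap. Ahsp, which encodes the chaperone of free alpha globin, was at 21198, 17169, 6064 and 3994, and Hbb-y, the epsilon-like globin gene, at 13290, 9524, 1533 and 3841. Globin paralogs can share probes, so single globin values are uncertain.

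Haem synthesis and iron genes had smaller gaps. Of 18, 3 had a gap of at least 2-fold toward ITGA8 (5.20% of all genes) and 13 did not overlap with ITGA8 higher (32.1% of all genes). Alas2, the first and red-cell-specific enzyme of haem synthesis, was at 1597, 1667, 537 and 526, a 2.92-fold gap, and Slc25a37, the mitochondrial iron importer, at 6413, 8452, 2256 and 2199, a 2.83-fold gap. The ferrireductase gene Steap3 had a gap of 2.10-fold. The later enzymes, which other cells use as well, had gaps of 1.96-fold for Alad, 1.68-fold for Ppox, 1.57-fold for Cpox, 1.49-fold for Urod, 1.42-fold for Fech and 1.38-fold for Uros. Tfrc, the transferrin receptor gene, had 1.92-fold, Slc25a38, a mitochondrial glycine carrier gene, 1.46-fold and Abcb6 1.07-fold. Tfr2, Abcb10 and Slc11a2 overlapped, and the ferritin heavy chain gene Fth1 was at 20725, 23125, 23727 and 28130. Hmox1, which breaks haem down, was at 420, 500, 4132 and 510, so PDPN+ alone was high.

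Genes of red cell enzymes and maturation were mixed, with 5 of 17 higher in the ITGA8 sort and 1 in the PDPN sort, against 5.20% and 2.92% of all genes. Ctse, which encodes the aspartic protease cathepsin E, was at 2883, 5518, 21 and 46, and Kcnn4, the calcium-activated potassium channel of the red cell, at 8723, 5051, 328 and 144. Their gaps were 46.8-fold and 14.7-fold, and the size of the first depends on the pseudocount, since both PDPN-sort arrays lay below the floor. Car2, a carbonic anhydrase gene, had a gap of 3.45-fold, Trim10 3.11-fold (769, 1018, 236 and 101) and Fn3k 2.13-fold. Antioxidant and glycolytic genes of the list differed little, with Prdx2 at 1.18-fold, Gpx1 at 1.31-fold and Pklr at 1.43-fold, while Bpgm, Xpo7 and Mgst3 overlapped. Slc14a1, the red cell urea transporter gene, was at 5327, 4785, 2751 and 37, and Car1, Nt5c3 and Blvrb had gaps of 1.67-fold, 1.31-fold and 1.32-fold. Cat, the catalase gene, was higher in the PDPN sort by less than the rule asks. Ube2l6, a conjugating enzyme of ISG15, met the rule toward PDPN, at 54, 175, 413 and 779.

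**Figure D2:**
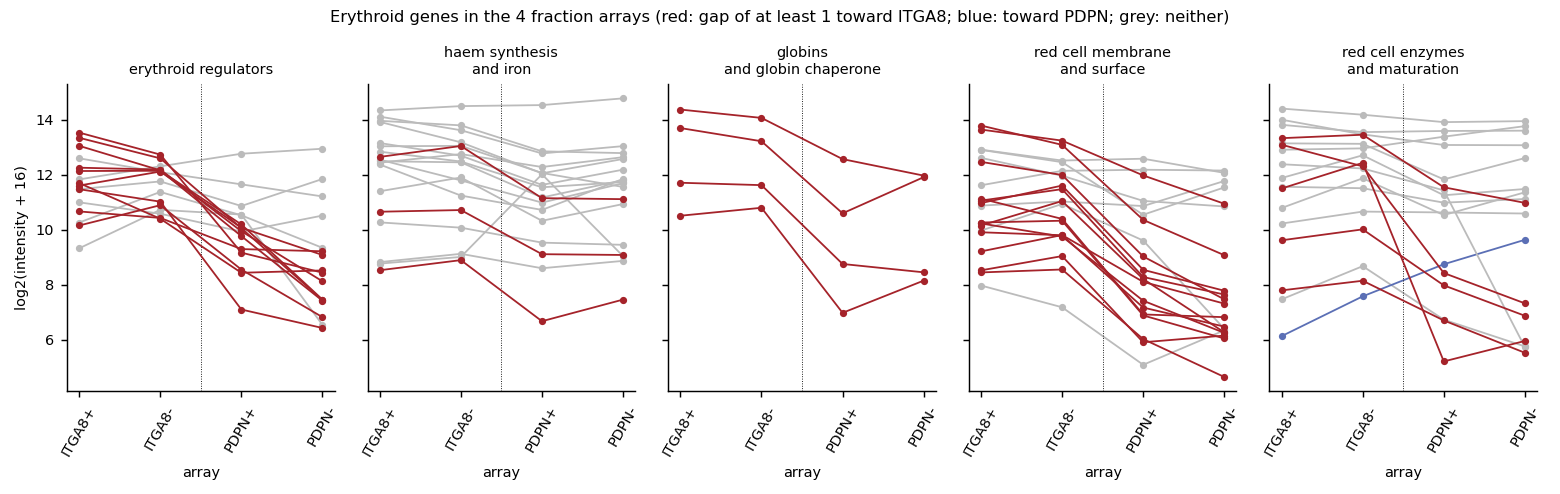
Each line is 1 erythroid-list gene across the ITGA8+, ITGA8-, PDPN+ and PDPN- arrays, on the log2(intensity + 16) scale, in 5 panels by role. Red lines are the 35 genes with a gap of at least 1 toward ITGA8 and fall from the ITGA8-sort to the PDPN-sort arrays, the blue line is Ube2l6, and grey lines are genes short of the rule, many of them haem synthesis and enzyme genes.

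The genes whose pattern over the 4 arrays was most like that of Klf1, by the Euclidean distance of log2 values centred on each gene's mean, were Redrum at 0.163, Hoxb5 at 0.247, Epor at 0.293, and Dnah8 and Kcnn4, both at 0.561. For Epor they were Hoxb5 at 0.246, Klf1 at 0.293, Redrum at 0.375, Kcnn4 at 0.514 and Six4 at 0.574. Hoxb5 and Six4 are homeobox genes of mesenchyme and not erythroid genes, and are on none of the erythroid lists.

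Genes of blood progenitors and of endothelium were also among the ITGA8-higher genes. Of 17 progenitor genes 6 were higher, against 5.20% of all genes. Myb, which encodes a factor that keeps progenitors proliferating, was at 10987, 10636, 1073 and 240, a 9.78-fold gap. Lyl1 was at 1779, 1736, 204 and 53, a 7.96-fold gap, and Ikzf1, the Ikaros gene, at 6322, 5262, 856 and 153, a 6.05-fold gap. The 2 ITGA8-sort arrays were nearly level in Myb and Lyl1, and PDPN- was the lowest array in each of the 3 genes. Meis1 had a gap of 3.11-fold, Cd93 2.51-fold and Kit, the stem cell factor receptor gene, 2.48-fold. Of 21 endothelial genes 7 were higher (5.20% of all genes) and none lower by the rule (2.92%). Oit3, a gene of liver sinusoidal endothelium, was at 488, 652, 71 and 36, and Robo4, a guidance receptor of endothelium, at 346, 312, 50 and 5. Their gaps were 5.79-fold and 4.97-fold, followed by Flt1, a VEGF receptor gene, at 3.88-fold, Mmrn2 at 3.74-fold, Lyve1 at 3.35-fold, Emcn at 2.60-fold and Sox17 at 2.37-fold. The summed intensity of the 21 endothelial genes was 14511, 12616, 9408 and 4453, lowest in PDPN-.

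Lists that mark other blood cells and mesothelium were split within the PDPN sort, with median PDPN+ minus PDPN- differences of 4.40 for megakaryocyte, 4.62 for macrophage, 5.36 for neutrophil and eosinophil and 4.96 for mesothelial genes on the log2 scale. Over all genes this median was 0.05. The few members that met the rule stand beside 5.20% of all genes higher in the ITGA8 sort and 2.92% higher in the PDPN sort. Megakaryocyte genes had summed intensities of 53348 in ITGA8+, 24619 in ITGA8-, 46839 in PDPN+ and 1199 in PDPN-, and 0 of 16 met the rule in either direction. Macrophage genes summed to 17126, 10666, 76262 and 17721, with Vcam1 the 1 gene of 23 that met the rule, toward PDPN. Neutrophil and eosinophil genes summed to 3323, 2161, 35774 and 923. Here too 1 gene of 14 met the rule, Lcn2, the lipocalin 2 gene, which was at 95, 26, 663 and 699 and so was unlike the list in being level between PDPN+ and PDPN-. Mesothelial genes, at 40860, 72427, 98549 and 43113, gave 1 of 20, the epithelial cadherin gene Cdh1 (1142, 1570, 6593 and 10883, higher in the PDPN sort). Stellate genes gave 1 of 19, the matrix gene Ecm1, with a gap of 2.06-fold toward ITGA8 (5004, 5106, 2416 and 751). At any gap, 11 of the 19 stellate genes did not overlap with ITGA8 higher and 2 with PDPN higher. Over all genes these shares were 32.1% and 20.0%.

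Families of transcription factor genes were counted by gene symbol after the values had been seen, so the counts describe what was seen. They stand beside 5.20% of all genes higher in the ITGA8 sort and 2.92% higher in the PDPN sort. Of 21 Hox genes above the floor 9 were higher in the ITGA8 sort and none in the PDPN sort. Hoxb5 was at 1997, 1395, 100 and 45, a 12.2-fold gap, Hoxc5 at 2416, 2444, 805 and 28, and Hoxa5 at 2513, 2609, 1033 and 90. In Hoxc5 and Hoxa5 the PDPN+ array lay between the ITGA8 sort and PDPN-, while Hoxb5 was low in both. Of 6 T-box genes 4 were higher, led by Tbx5, a factor of heart and forelimb, at 579, 539, 96 and 18. The homeobox gene Six4 was at 831, 901, 37 and 28. Among 23 forkhead genes Foxc1 (1098, 1059, 90 and 41), Foxc2 (3608, 2658, 200 and 444), Foxd2 and Foxp2 were higher in the ITGA8 sort, and Foxa3, a liver factor, in the PDPN sort.

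Of the 19 genes on the collagen and matrix list 1 was higher in the ITGA8 sort, Fap, near the 5.20% of all genes. Counted by symbol after the values were seen, 7 of 36 collagen genes were higher in the ITGA8 sort and none in the PDPN sort. Col26a1 was at 3869, 1786, 179 and 54, a 9.24-fold gap, and Col9a1, a chain of cartilage collagen, at 1014, 238, 40 and 12, a 4.54-fold gap. Both were also higher in ITGA8+ than in ITGA8- cells. Col19a1, Col8a1, Col23a1, Col20a1 and Col13a1 had gaps of 2.03-fold to 3.48-fold. Of 15 ADAMTS metalloprotease genes 5 were higher, led by Adamts18 at 4.55-fold, and of 12 RGS genes, which encode brakes on G protein signalling, 5 were higher, led by Rgs5, a pericyte gene, at 2666, 2195, 332 and 674. Fap, fibroblast activation protein, was at 1539, 778, 15 and 30. Cyp1b1, a cytochrome P450 of mesenchyme, was at 8493, 3444, 403 and 823, a 4.12-fold gap, and Bcat1, which transaminates branched-chain amino acids, at 4508, 2122, 124 and 246, an 8.16-fold gap. Of 12 neural genes 5 were higher (5.20% of all genes), among them Sox10, a neural crest factor, at 393, 238, 4 and 25, and Gabrb2, a GABA receptor subunit gene, at 1179, 612, 31 and 54. Elavl3 and Nefl had gaps of 4.04-fold and 2.79-fold. Hk1, the hexokinase of red cells and many tissues, was at 8240, 3219, 469 and 180.

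Several of the largest gaps belonged to transcripts below the floor in both PDPN-sort arrays. AI506816 was at 3752, 3762, 4 and 3, Mela, a melanoma antigen gene, at 1208, 1205, 1 and 6, and AI661323 at 664, 844, 2 and 17. In AI506816 and Mela the ITGA8-sort arrays were nearly equal and the PDPN-sort arrays close to 0. BC023969 was at 2015, 2609, 92 and 96, Hesx1, a homeobox gene of the forebrain, at 654, 1164, 32 and 8, and Spn, the leukosialin gene of blood cells, at 1253, 1439, 82 and 71. None of these 6 genes had overlapping sorts, and the PDPN-sort values of all 6 lie below the floor. With a pseudocount of 64 in place of 16 the gap of AI506816 fell from 7.558 to 5.81 on the log2 scale. Those of Mela, AI661323 and Hesx1 also moved, while BC023969 (4.181 to 3.7) and Spn (3.695 to 3.173) stayed close. In all, 26 genes exceeded 4 times the floor in both ITGA8-sort arrays and lay below it in both PDPN-sort arrays, and 22 of the 26 were above the floor in the ALCAM+ array and 16 in liver. In the other direction there were 2 such genes, Il1rn and Lcn2, and neither was above the floor in ALCAM+. The same floor is stricter in ALCAM+ and liver, whose 2% trimmed means were 330.6 and 196 against 996 to 996.8 in the fractions. In ALCAM+ 10711 genes were above it and in liver 8384.

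**Figure D3:**
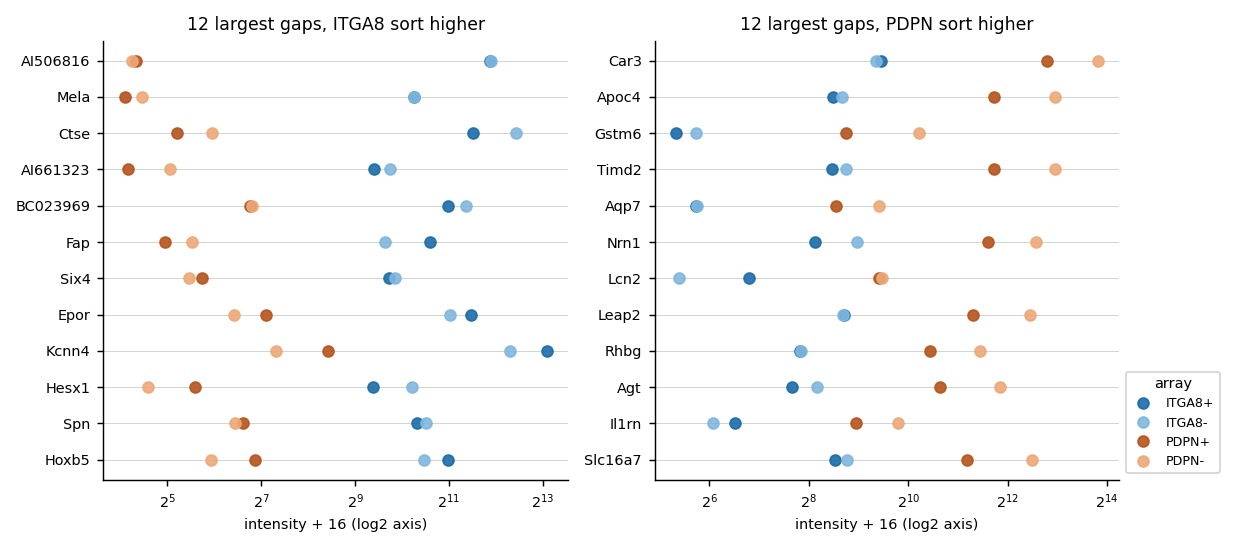
Intensity + 16 on a log2 axis in the 4 fraction arrays (coloured points) for the 12 genes with the largest gap in each direction. On the left AI506816, Mela and Spn show ITGA8+ and ITGA8- close together, and on the right the PDPN- point lies above the PDPN+ point in each of the 12 genes.

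The largest gap toward PDPN was that of Car3, a carbonic anhydrase gene of liver and muscle. It was at 683 in ITGA8+, 637 in ITGA8-, 7060 in PDPN+ and 14474 in PDPN-, a 10.1-fold gap. Apoc4, an apolipoprotein gene, was at 341, 392, 3350 and 7915, an 8.25-fold gap. Timd2, a receptor for ferritin, was at 338, 414, 3346 and 7903, a 7.82-fold gap. In each of these genes the 2 ITGA8-sort arrays were nearly level and PDPN- was the highest array. Leap2, a liver peptide hormone gene, had a gap of 6.06-fold (400, 394, 2503 and 5561), the ammonium transporter gene Rhbg 6.02-fold and Slc16a7, a monocarboxylate transporter gene, 5.37-fold. Agt, the angiotensinogen gene, was also among the 12 largest. Gstm6 was at 24, 37, 412 and 1178 and Nrn1, neuritin, at 264, 483, 3090 and 6029. Aqp7, an aquaglyceroporin gene, was at 37, 38, 359 and 662. On its specific probe sets its gap toward PDPN was -0.24 on the log2 scale, so the PDPN-sort arrays no longer lay above both ITGA8-sort arrays.

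Of 24 hepatoblast genes 6 were higher in the PDPN sort (25.0%, against 2.92% of all genes), none was higher in the ITGA8 sort by the rule, and 16 did not overlap with PDPN higher (20.0% of all genes). Ahsg, fetuin A, was at 2609, 2917, 10290 and 16444, a 3.51-fold gap. The transcription factor genes were Prox1 at 2106, 3173, 8328 and 10545, and Cebpa, which encodes C/EBP alpha, at 1595, 1834, 4657 and 9649, with gaps of 2.62-fold and 2.53-fold. Foxa3, Onecut1 and the prothrombin gene F2 were nearer the threshold, at 2.16-fold, 2.12-fold and 2.00-fold. Alb, the albumin gene, was at 22138, 18532, 23591 and 25926, a gap of 1.07-fold, and Afp, the alpha-fetoprotein gene, at 32957, 24675, 30501 and 32178, with the sorts overlapping. The summed intensity of the list was 186003, 160879, 238070 and 318975.

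Metabolic and plasma protein families were again counted after the values were seen, beside 2.92% of all genes higher in the PDPN sort and 5.20% higher in the ITGA8 sort. Of 9 UDP glucuronosyltransferase genes 5 were higher in the PDPN sort, and Ugt2b37 was higher in the ITGA8 sort. Of 13 coagulation genes 5 were higher in the PDPN sort and none in the ITGA8 sort: F13b, at 166, 300, 1059 and 3257, F7, F10, F12 and F2. Of 18 glutathione S-transferase genes 5 were higher, among them Gsta3 at 281, 486, 1989 and 6949, of 11 apolipoprotein genes 4, and of 15 complement genes 3, including the mannose-binding lectin gene Mbl1 at 440, 345, 2036 and 4468. Of 31 cytochrome P450 genes 5 were higher in the PDPN sort, led by Cyp2d26 (205, 205, 1160 and 3339), and 2 in the ITGA8 sort. One of these 2 was Cyp26a1, which breaks down retinoic acid, at 146, 169, 13 and 19. Solute carriers were split, with 18 of 256 higher in the ITGA8 sort and 21 in the PDPN sort.

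Most cholesterol synthesis genes were higher in both PDPN-sort arrays, by less than the rule asks. Of 16, 14 did not overlap with PDPN higher (20.0% of all genes did so), and 2 had a gap of at least 2-fold (2.92% of all genes). Sc5d, a sterol desaturase gene, was at 1284, 1707, 4563 and 10260, a 2.66-fold gap. Among interferon response genes 2 of 15 were higher in the PDPN sort (2.92% of all genes), Bst2 (164, 291, 837 and 1492) and Usp18 (219, 429, 933 and 3493). Il1rn, the interleukin 1 receptor antagonist gene, was at 75, 51, 481 and 876. Cell cycle (24), immediate early and stress (22), oxidative phosphorylation (19), megakaryocyte (16), housekeeping (15) and ribosomal protein genes (13) had no member that met the rule in either direction.

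**Figure D4:**
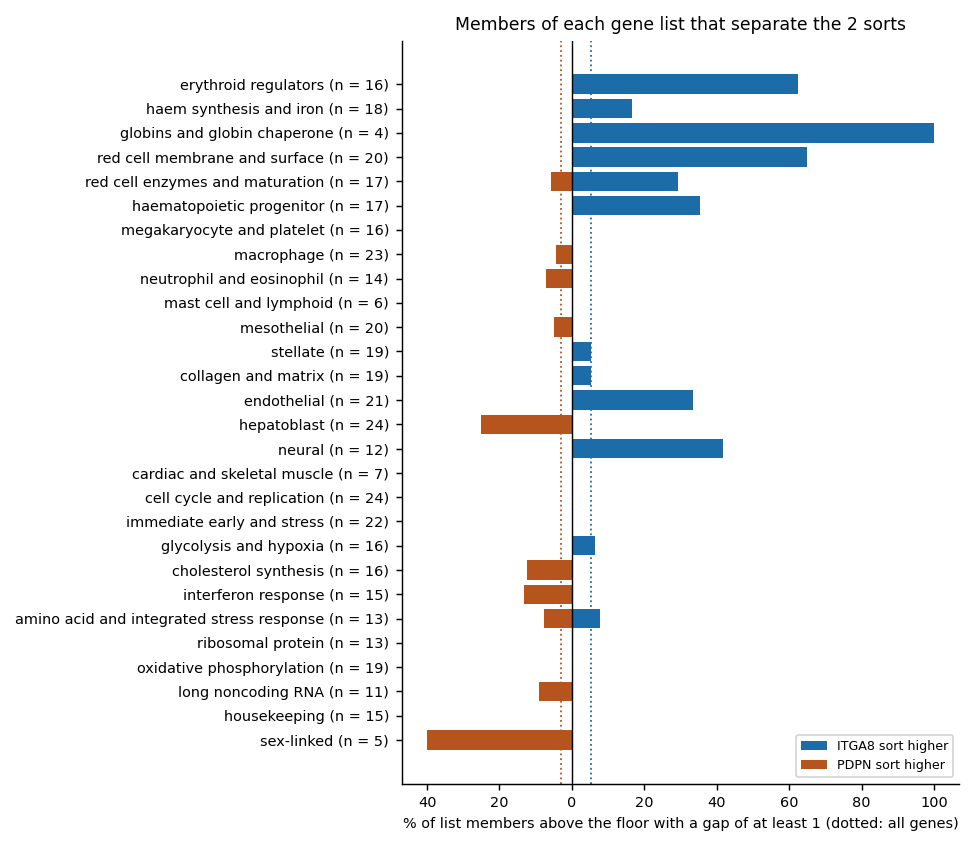
Percentage of each list's members above the floor with a gap of at least 1, to the right for ITGA8 higher and to the left for PDPN higher, with the number of members beside each name and dotted lines at 5.20% and 2.92% for all genes. Erythroid, progenitor, endothelial and neural lists extend to the right. The longest bar to the left is that of the sex-linked genes (2 of 5), followed by hepatoblast genes (6 of 24).

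The 2 directions differed in how the fractions of a sort lay. Of the 424 PDPN-higher genes 387 were higher in PDPN- than in PDPN+, with a median PDPN+ minus PDPN- difference of -0.96 on the log2 scale, against 6815 of all 14497 genes. Of the 754 ITGA8-higher genes 501 were higher in PDPN+ than in PDPN- and 514 higher in ITGA8+ than in ITGA8-. Over all 14497 genes these counts were 7652 and 7285. The median intensities of the PDPN-higher genes were 331.5, 408, 1277 and 2664, and those of the ITGA8-higher genes 425, 347, 83.5 and 52. Both sets of genes were chosen on these same arrays, so these counts and medians are given as description. A second probe set, where the gene has one past the floor, likewise had a gap of at least 1 in the same direction for 105 of 208 ITGA8-higher genes (50.5%) and 52 of 135 PDPN-higher genes (38.5%). Over all genes with another probe set the shares were 3.84% and 1.96%. These probe sets were read on the same arrays, so they bear on the probe sets and not on the cells.

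The unsplit ALCAM+ array and the liver array took part in the choice of members only through the floor, a median over all 6 arrays. They are on another scale, so the ALCAM+ array was moved by its median difference of -1.48 on the log2 scale from the fraction arrays. The 16 was added before this move, so the lowest ALCAM+ values came to lie above the lowest fraction values. For genes near 0 in the PDPN sort this pulls the ALCAM+ array toward the ITGA8 side. Since every fraction was taken from ALCAM+ cells, the question was on which side this array lay. It was nearer the mean of the ITGA8 sort for 665 of the 754 ITGA8-higher genes (88.2%) and for 375 of the 424 PDPN-higher genes (88.4%), against 63.1% of all 14497 genes. With quantile normalisation of all 6 arrays, an alternative chosen after seeing the data, the counts were 540, 382 and 9119. With the PDPN sort mean set to 0 and the ITGA8 sort mean to 1, the median position of ALCAM+ was 0.887 for ITGA8-higher and 0.823 for PDPN-higher genes. Klf1 was at 2494 in ALCAM+ and Car3 at 638, before the shift. A difference in scale between these arrays and the fractions cannot be told apart from a difference between cells.

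**Figure D5:**
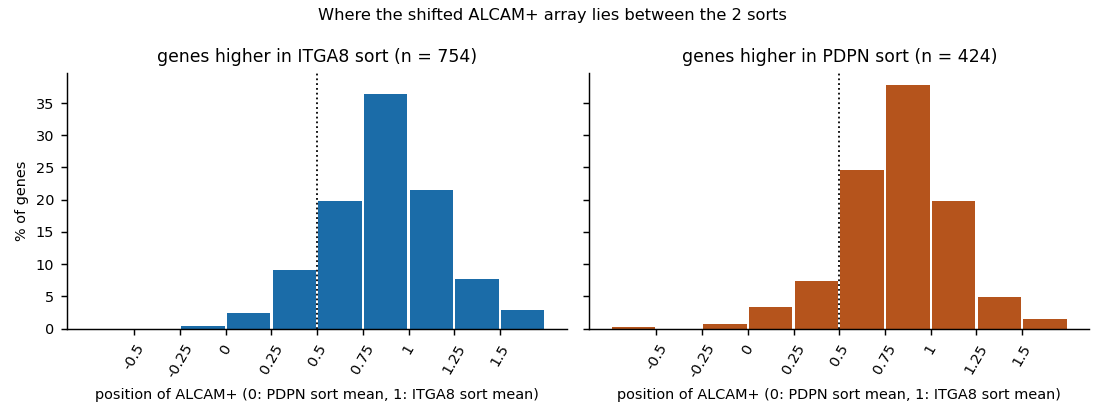
Position of the shifted ALCAM+ array between the sort means, 0 at PDPN and 1 at ITGA8, as a percentage of the 754 ITGA8-higher (left) and 424 PDPN-higher genes (right), with a dotted line at the midpoint of 0.5. In both panels most genes lie to the right of the line, with medians of 0.887 and 0.823.

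ALCAM+ minus liver was read as a further measure, relative to the median shift of 0.903 log2 over the 10956 genes above the floor in either array. Of those genes 15.4% were 2-fold higher and 11.2% 2-fold lower in ALCAM+ cells. Of 420 ITGA8-higher genes above that floor, 100 (23.8%) were higher and 149 (35.5%) lower. With differences as deposited, not relative to the median shift, the counts were 184 higher and 73 lower, so which side held more genes turned with the scaling. Relative to the median shift, 31 of the 35 erythroid members were 2-fold lower in ALCAM+ than in liver and none 2-fold higher, with a median of -2.20. Of all 75 erythroid-list genes above the floor in a fraction array, 59 were 2-fold lower and none 2-fold higher, with a median of -1.58. This was thus no trait of the 35 alone. Klf1 was at -1.12, Epor at -1.12 and Alas2 at -4.02. As deposited Klf1 was at -0.22, Epor at -0.21 and Alas2 at -3.12. Klf1 and Epor were thus 2-fold lower only relative to the shift, and the erythroid count depends on the scaling. Relative to the shift, other ITGA8-higher genes had positive values, among them Hoxc5 at 2.99, Col26a1 at 2.87, Cyp1b1 at 2.59 and Fap at 2.13. Of 265 PDPN-higher genes 18 (6.79%) were higher and 15 (5.66%) lower, and as deposited 102 and 4, with Ahsg at -0.01 and Cebpa at -0.54 relative to the shift.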

How the data were processed

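RNA was labelled from 20 ng of total RNA with biotin after amplification, per the labels' protocols, and the submitters' processing notes name RMA and Partek, without versions. The authors deposited linear intensity values, as whole numbers, 1 array per group. The 4 fraction arrays share a 2% trimmed mean of 996 to 996.8, and the liver and ALCAM+ arrays are on scales of their own. Groups came from each sample's source label.

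Of 45101 probe sets, 64 controls, those with no gene and 1280 naming several genes were left out. The other 38011 named 20678 genes, and RefSeq symbols (GRCm38.p6) matched 92.1% of them through Entrez identifiers. Values were taken to log2(intensity + 16), and each gene kept the probe set whose mean was highest in the 4 fraction arrays. Folds on this scale understate differences of low genes. Without replicates no test was made, and the number of arrays limits the precision. The rule was checked on simulated data.

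The members and the 28 gene lists (485 genes, 466 measured) were chosen with earlier results of these data known. Genes named are the 12 largest gaps each way, up to 4 members per list, erythroid-list genes, sort genes, exceptions in a list, threshold neighbours and nearest patterns. Family members and further members of lists were named after their values were seen. Some members are not reported here. Alternatives changed the pseudocount, floor, gap, scaling, probe set or arrays. Python 3.11.15, pandas 2.3.3 and numpy 2.4.6 were used.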

Additional observations from a re-analysis of the deposited data

How the results depend on the processing

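Depth is not defined for arrays, and with 1 array per fraction no spread between samples is known. No paired analysis was possible because each group has 1 array. The counts of ITGA8-higher and PDPN-higher genes, 754 and 424, became 481 and 359 with a pseudocount of 64, 383 and 385 with a floor 4 times higher, 156 and 45 with a gap of 2, and 2512 and 1264 by the difference of sort means. Quantile normalisation of the 4 arrays gave 508 and 501, of which 492 and 407 were among the original genes. Leaving out an array loosens the rule, since fewer arrays must be apart, and gave 951 (without ITGA8+) to 2942 (without PDPN+) and 610 to 1190. Without ITGA8- the counts were 1737 and 1027, and without PDPN- 1139 and 865. Erythroid members, 35 of 75, were 19 with a gap of 2 and 28 to 48 otherwise. With a gap of 2 the counts were 2 for endothelial (from 7), 3 for progenitor (from 6), 3 for neural (from 5) and 0 for hepatoblast genes (from 6). Sort means gave 18, 12 and 11 for endothelial, progenitor and hepatoblast genes. The higher floor gave 4 endothelial and 2 neural genes, specific probe sets 3 progenitor genes, and the median over probe sets 3 neural genes. Leaving out 1 array gave 8 to 17 endothelial, 6 to 13 progenitor, 5 to 7 neural and 6 to 12 hepatoblast genes, each highest without PDPN+, tied for neural genes. With ALCAM+ minus liver as deposited, 184 ITGA8-higher genes were higher and 73 lower, and 102 and 4 of the PDPN-higher genes. Gaps of 25 named genes were recomputed 346 times: 287 stayed close, 58 moved and 1 changed sign, that of Aqp7, at -0.24 with specific probe sets. The cause was not tested.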

Other observations

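Of 179 genes with a Gm symbol, given to predicted loci, 25 were higher in both ITGA8-sort arrays and 2 in both PDPN-sort arrays, against 5.20% and 2.92% of all genes. Of 318 genes with a Zfp symbol the counts were 14 and 2, both shares below those of all genes. These families were counted after the values were seen.

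Of 11 long noncoding RNA genes 5 did not overlap with PDPN higher and 1 with ITGA8 higher, against 20.0% and 32.1% of all genes. One met the rule (2.92% of all genes): Snhg11, at 236 in ITGA8+, 214 in ITGA8-, 1047 in PDPN+ and 1336 in PDPN-. Among amino acid response genes Psph, the last enzyme of serine synthesis, was at 1145, 2191, 4918 and 10019 in the same order, and Bcat1 went the other way.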
